A study of Mus musculus with 10 samples.

Results

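The genes described here were 48 mouse genes of the interferon response and of antigen processing, read in lists of promoter peaks of RNA polymerase II. They were chosen by gene symbol: a gene's values were the promoter peaks that the deposited lists assign to that symbol. An assigned peak was present in at least 1 of 6 libraries for 42 of the 48 genes, out of 10419 genes with an assigned peak in all. Polymerase-bound DNA was immunoprecipitated and sequenced (ChIP-seq) with the antibody 8WG16 (ab817), used against total polymerase, from primary Th1 cells of Balb/c DO11.10 mice. DO11.10 mice carry a transgenic T cell receptor, and Th1 cells are the CD4+ helper cells that secrete interferon gamma.

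The 3 conditions, with 2 libraries each, were non-restimulated cells (NR) and cells after 30 min or 2 h of restimulation. Anti-CD3 (5 µg/ml, fixed to the plate) and anti-CD28 (2.5 µg/ml, in solution) served for this, and together they engage the T cell receptor complex and the costimulatory receptor CD28. The NR cells shared the earlier history of the restimulated ones: CD4+ T cells were primed with anti-CD3, anti-CD28, interleukin 12 and an antibody against interleukin 4, expanded with an interleukin 2 analogue, and cultured without it on the last day. All cells were fixed for 10 min in 1% formaldehyde. No label states that the 2 libraries of a condition derive from different animals or cultures. The p-values therefore reflect library-to-library spread, and that spread may be technical.

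Interferon gamma binds a receptor that signals through the kinases JAK1 and JAK2 to genes with GAS elements, whereas type I interferons act through a complex with STAT2 and IRF9 on ISRE elements. Among the early targets is IRF1, itself a transcription factor, and the targets that follow include guanylate-binding proteins, immunity-related GTPases, antiviral enzymes, and the immunoproteasome and TAP transporter, which make and carry peptides for MHC class I. The promoters printed next belong to genes whose polymerase peaks were longest relative to NR at 30 min or that hold both elements side by side.

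Promoter sequences of 35 of the 48 genes were found in the RefSeq table (build GRCm38.p6, windows of 300 bases around a start site). The ISRE-like motif, GAAA followed after any 2 bases by another GAAA, or its reverse complement was present in 18 of the 35 genes (51.4%), against 3.99% of all 27025 genes in the table. The GAS-like motif TTCNNNGAA, which is its own reverse complement apart from the middle bases, was present in 15 genes (42.9%), against 9.55% of all genes. Both motifs stood in 1 window in 8 genes (22.9%), against 0.54%. A match is a description of letters and not a binding site. Some of the genes are paralogs, so their matches may not be separate. Whole windows were compared only for Tgtp1 and Tgtp2, with 151 of 292 bases equal (51.7%) at the best shift without gaps. That share misses bases that line up only across an inserted base, so it understates the likeness. From the GAS-like motif to the window end, the 2 windows differ in few bases. The stretches of 57 bases that hold both motifs in Igtp and Irgm2 are also nearly the same. Each window below lies on the plus strand unless marked, and capitals mark the 2 motifs.
Gbp3 (chr3:142559794-142560093): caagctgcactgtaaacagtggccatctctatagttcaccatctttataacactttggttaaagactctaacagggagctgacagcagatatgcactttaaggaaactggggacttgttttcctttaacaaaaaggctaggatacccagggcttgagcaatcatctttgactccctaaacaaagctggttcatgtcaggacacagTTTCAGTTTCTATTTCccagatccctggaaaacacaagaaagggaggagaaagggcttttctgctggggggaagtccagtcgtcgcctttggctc
Gbp7 (chr3:142530086-142530385): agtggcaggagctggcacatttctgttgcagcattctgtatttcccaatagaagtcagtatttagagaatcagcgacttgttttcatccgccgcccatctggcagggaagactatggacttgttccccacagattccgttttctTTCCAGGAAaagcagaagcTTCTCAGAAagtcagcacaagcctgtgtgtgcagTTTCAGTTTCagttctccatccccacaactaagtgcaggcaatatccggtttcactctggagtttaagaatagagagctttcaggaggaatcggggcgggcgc
Gbp5 (chr3:142496684-142496983): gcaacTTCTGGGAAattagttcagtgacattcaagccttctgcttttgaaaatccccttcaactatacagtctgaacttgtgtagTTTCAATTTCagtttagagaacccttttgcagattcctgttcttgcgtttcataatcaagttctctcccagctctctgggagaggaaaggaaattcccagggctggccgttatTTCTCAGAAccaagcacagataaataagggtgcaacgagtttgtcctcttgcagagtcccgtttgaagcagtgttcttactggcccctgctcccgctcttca
Irf1 (chr11:53769764-53770063): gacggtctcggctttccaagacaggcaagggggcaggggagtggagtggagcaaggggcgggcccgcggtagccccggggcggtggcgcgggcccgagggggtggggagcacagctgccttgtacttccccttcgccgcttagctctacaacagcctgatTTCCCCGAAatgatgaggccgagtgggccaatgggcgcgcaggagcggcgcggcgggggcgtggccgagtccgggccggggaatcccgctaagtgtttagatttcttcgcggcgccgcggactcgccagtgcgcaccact
Igtp (chr11:58199493-58199549, excerpt): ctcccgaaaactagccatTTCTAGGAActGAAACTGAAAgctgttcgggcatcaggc
Tgtp2 (chr11:49064255-49064311, minus strand, excerpt): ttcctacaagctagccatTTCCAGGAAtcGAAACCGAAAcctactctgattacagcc
In Gbp3, 2 ISRE-like matches that overlap each other began 45 and 39 bases before the start site. In Gbp7, the ISRE-like match began 53 bases before the start and the GAS-like matches 106 and 87 bases before it. Gbp5 held an ISRE-like match 165 bases before the start and GAS-like matches 245 and 52 bases before it, and Irf1 held a GAS-like match 90 bases before it. In Igtp and Tgtp2 a GAS-like match was followed by an ISRE-like one after a gap of 2 bases. That arrangement occurred in 5 of 32851 windows (0.0152%): those of Igtp, Irgm2, Tgtp1, Tgtp2 and Gm12185, a gene in the same chromosome 11 cluster as the Tgtp genes. The stretches of Igtp and Irgm2, and those of Tgtp1 and Tgtp2, are alike in sequence, so they may not be separate occurrences. The windows printed above, or around the excerpts, were overlapped by a called promoter peak in 6 of 6 libraries.

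The value compared was the called length, the summed width in bp of the promoter peaks assigned to a gene in a library, which grows with signal and also with library depth. Per library there were 9074 to 10680 promoter peaks, which covered 8.73 to 18.2 Mb, and their median width was 692 to 1229 bp. The files give no read counts. The lowest local background, expressed in reads, was 0.659 to 2.48 in the 3 libraries of replicate 1 and 4.65 to 5.89 in those of replicate 2, a difference in background that runs with the replicate number. For the tests, log2(called length + 100 bp) was therefore centred on each library's median over 7410 genes with a peak in all 6 libraries, and the 9908 genes that had a peak in 2 or more libraries were fitted with limma. Peaks were assigned to 9 of 10 T cell markers in every library, to 6, 6, 6, 8, 7 and 8 of 8 Th1 markers in the order NR, 30 min and 2 h, and to 0 of 6 B cell and 0 of 8 myeloid markers in every library. In each library 1 of the 6 B cell markers did have a promoter peak on the gene or within 1000 bp of it, assigned to another gene. Of 6 markers of cytotoxic T or NK cells, 1 to 3 had a peak, and Cd8a, Ncr1 and Klrb1c had none. Of 7 genes induced by stimulation, 3 and 4 had a peak in NR libraries, both 30 min libraries had 6, and both 2 h libraries had 7.

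Most of the interferon genes carried polymerase at their promoters already in NR cells. An assigned peak was found for 39 and 41 of the 48 genes in NR libraries, 39 and 40 at 30 min, and 41 and 40 at 2 h. Among the 42 genes with any assigned peak, 38 had one in all 6 libraries (90.5%), against 71.1% of all genes with an assigned peak. Tap1 had one in 5 libraries, Mx1 in 4, Rtp4 in 2 and Parp9 in 1. No interferon gene gained an assigned peak at 30 min in the sense of a peak in both libraries and in neither NR library (0 of 42), against 0.374% of all genes, and none lost one (0 of 42), against 0.365%. At 2 h the counts were again 0 gained, against 2.57% of all genes, and 0 lost, against 0.662%.

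The 6 genes with no assigned peak were Nlrc5, Ifit1, Ifit3, Oasl2, Rsad2 and Rnf213. For 3 of them a promoter peak lay over the gene or within 1000 bp of it but was assigned to a neighbour: at Nlrc5, the transactivator of MHC class I genes, to the long non-coding RNA 9330175E14Rik, at Ifit1, which binds viral RNA, to Ifit1bl2, and at Rnf213, a ubiquitin ligase, to Mir1932. Counted by position, the called length at Nlrc5 was 855 and 894 bp in NR libraries, 1092 and 1569 bp at 30 min, and 1092 and 1422 bp at 2 h. The 4 restimulated libraries lay above both NR libraries at Nlrc5 in these uncentred bp, the scale on which 52.3% of all genes with assigned peaks lay above NR at 2 h, and its difference was not tested. At Ifit1 it was 674 and 717 bp in NR libraries, 459 and 690 bp at 30 min, and 536 and 779 bp at 2 h, so that all 3 conditions overlapped. Ifit3, Oasl2 and Rsad2, which are antiviral genes, had no promoter peak on the gene or within 1000 bp of it in any library, although the promoters of Ifit3 and Rsad2 hold the ISRE-like motif. Parp9 shares its start region with Dtx3l, with which it works as a complex, and the peak over both was assigned to Dtx3l in all 6 libraries.

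**Figure D1:**
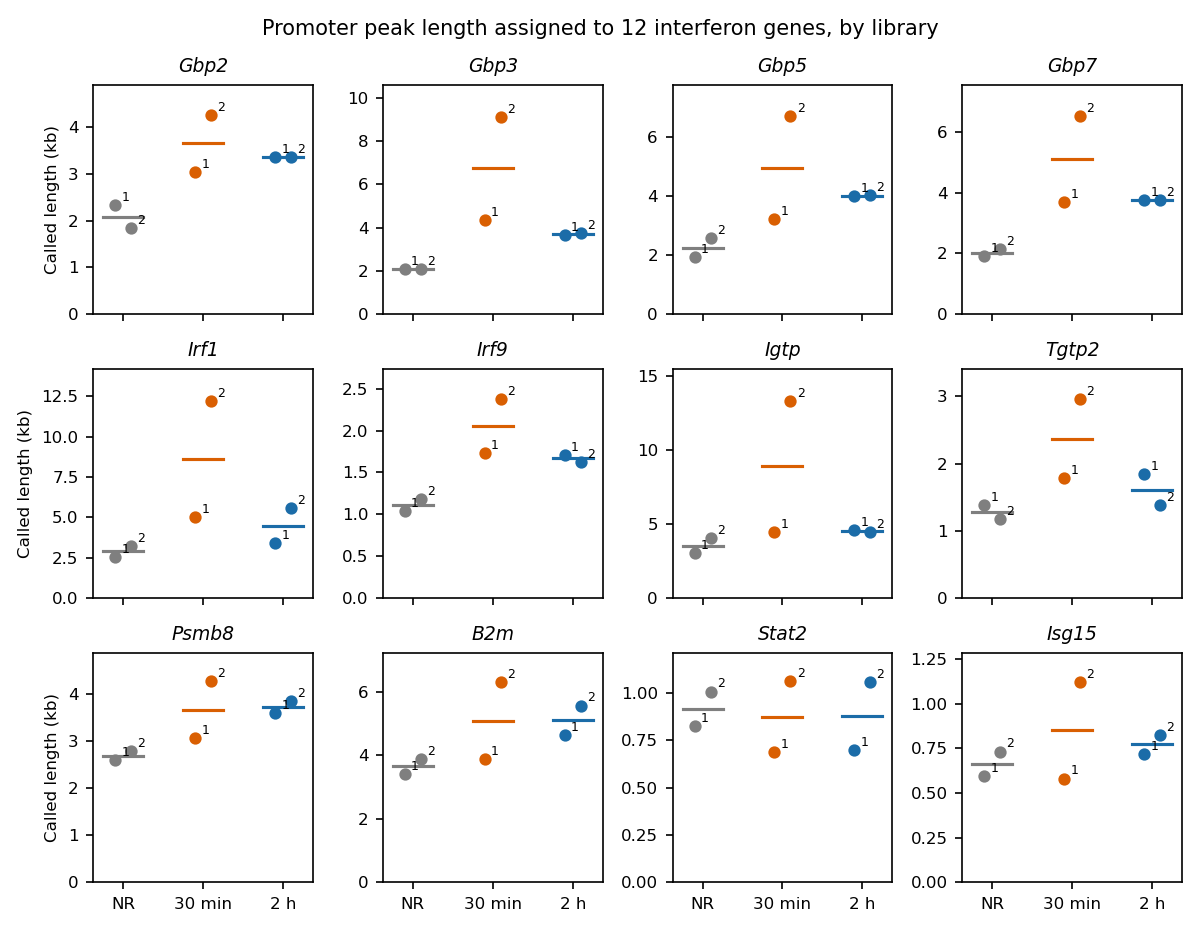
Called promoter length in kb (vertical axis, from 0) of 12 interferon genes in the 6 libraries at NR, 30 min and 2 h. Points are libraries, marked with their replicate number, and bars are the means of 2 libraries. For all 12 genes the greatest called length lay in the second 30 min library, and for Stat2 and Isg15 the 3 times overlap.

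Which interferon genes differed after 30 min of restimulation was asked first. The longest peaks relative to NR belonged to guanylate-binding protein genes, Irf1 and Igtp, but no interferon gene passed the test. With limma and Benjamini-Hochberg adjustment, 0 of 41 tested interferon genes were called higher, against 0.232% of all genes, and 0 were called lower, against 0.0101%. At an unadjusted p under 0.05 there were 9 of 41, 8 of them higher and 1 lower, against 8.00% of all genes, 5.85% higher and 2.15% lower. The median log2 difference was 0.25 over the interferon genes and -0.04 over all genes tested, with 24 of 41 genes above 0. After centring, both 30 min libraries lay above both NR libraries for 15 of 41 genes, against 18.8% of all genes, and below them for 5, against 18.9%. Without any scaling the counts were 13 higher, against 11.5%, and 1 lower, against 1.16%. Within both replicate numbers taken separately, 20 genes were higher, against 27.2% of all genes, and 7 lower, against 31.7%. The second 30 min library also had the most promoter bp called over all genes, and of 42 interferon genes 30 had their longest called length there. In the second 2 h library 7 interferon genes had theirs. The median called length over all genes tested was 1316 bp in that library, against 1264 bp in the second 30 min library. The matching share over all genes was not counted, so what part the library has in this count was not tested.

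Guanylate-binding proteins coat the vacuoles of intracellular pathogens, and their genes stand in a cluster on chromosome 3 and another on chromosome 5. Gbp3 (chr3:142560016-142573213) had 2085 and 2071 bp of called length in NR libraries, 4342 and 9128 bp at 30 min, and 3651 and 3764 bp at 2 h. Both 30 min libraries exceeded both 2 h libraries, which in turn exceeded both NR libraries. The log2 difference after centring was 1.40 ± 0.20 (SE) at 30 min relative to NR, a fold of 2.63, and limma's adjusted p was 0.0912. Gbp7 (chr3:142530336-142550151) had 1903 and 2134 bp in NR libraries, 3700 and 6522 bp at 30 min, and 3757 and 3764 bp at 2 h. Its NR libraries lay below all others, and the log2 difference at 30 min was 1.09 ± 0.15 (limma, adjusted p = 0.0951).

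Gbp5, which also promotes inflammasome assembly, had 1940 and 2559 bp in NR libraries, 3201 and 6694 bp at 30 min, and 3992 and 4026 bp at 2 h. Its 30 min difference was 0.86 ± 0.17 (limma, adjusted p = 0.202), and NR did not overlap with either later time. Gbp2 had 2325 and 1841 bp in NR libraries, 3035 and 4262 bp at 30 min, and 3366 and 3354 bp at 2 h, again with no overlap between NR and the later times. Its log2 difference at 30 min was 0.61 ± 0.26 (limma, adjusted p = 0.663). Gbp4 on chromosome 5 had 1815 and 1117 bp in NR libraries, 2604 and 3742 bp at 30 min, and 2824 and 2596 bp at 2 h, with a 30 min difference of 0.92 ± 0.35 (limma, adjusted p = 0.611). Gbp6, Gbp8 and Gbp9 had shorter peaks, of 445 to 1481 bp over all libraries, and their 30 min differences of -0.05 to 0.31 all missed the test. Over the 8 genes, 0 passed and the median log2 difference at 30 min was 0.74, against -0.04 over all genes.

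**Figure D2:**
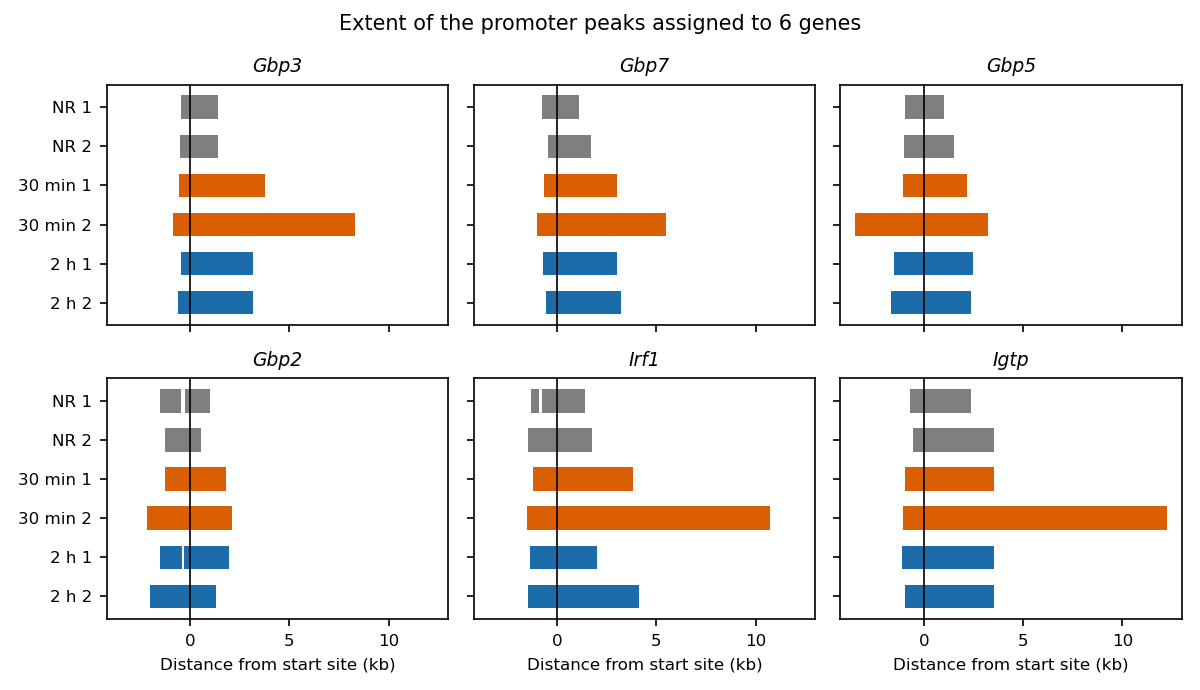
Extent of the promoter peaks assigned to 6 interferon genes, as distance from the start site in kb (horizontal axis, transcription to the right), with 1 row per library. Bars are called peaks, placed by the start of the transcript that each was assigned to. For the longer Gbp3 peak of each NR library that start lay further downstream, so the 2 separate peaks are drawn overlapping. At Gbp3 the downstream edge lay at 3766 and 8284 bp at 30 min and, from that other start, at 1421 and 1408 bp in NR libraries. At Igtp and Irf1 the second 30 min library reached furthest, to 12251 and 10704 bp.

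At Gbp3, Gbp7 and Irf1 the peaks ended further downstream of the start site at 30 min than in NR libraries. At Gbp3 the assigned peak ended 3766 and 8284 bp downstream at 30 min, against 1421 and 1408 bp in NR libraries, and 3193 and 3170 bp at 2 h. These NR values were counted from the start of another Gbp3 transcript, which lies further downstream, so the distances overstate the difference. On the chromosome the peaks ended at 142561917 and 142561904 in NR libraries, 142563818 and 142568336 at 30 min, and 142563245 and 142563222 at 2 h. At Gbp7 it ended 3034 and 5499 bp downstream at 30 min, against 1126 and 1692 bp in NR libraries. At Irf1 it ended 3818 and 10704 bp downstream at 30 min, against 1399 and 1787 bp in NR libraries, and the longest of these passed the 3′ end of the gene. Gbp3 also reached further upstream, to positions -575 and -843 at 30 min, against -468 and -521 in NR libraries. Of 38 interferon genes with an assigned peak in every library, 13 reached further downstream in both 30 min libraries, against 19.2% of 7410 genes, and 10 reached further upstream, against 11.4%. The 13 were Adar, Gbp2, Gbp3, Gbp4, Gbp5, Gbp7, Igtp, Irf1, Irf9, Isg20, Parp14, Psmb8 and Tgtp2. Each edge was measured from the start of the transcript that the peak was assigned to, and for Isg20 that transcript differed between libraries. Its second NR peak ended at position 78914298, past the end of the first 30 min peak at 78914267. Counted on the chromosome, Isg20 would therefore not be among them. In bulk chromatin, more polymerase per cell and more cells with polymerase cannot be told apart.

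Of the 4 tested transcription factors, 0 passed in any comparison, and their centred differences at 30 min ran from -0.24 to 1.25. Irf1 (chr11:53770014-53778374) had 2553 and 3236 bp in NR libraries, 5016 and 12200 bp at 30 min, and 3391 and 5588 bp at 2 h. The 30 min and NR libraries did not overlap, the 30 min and 2 h libraries did. Its log2 difference at 30 min was 1.25 ± 0.25, a fold of 2.39 (limma, adjusted p = 0.222). Irf9, the DNA-binding subunit of the type I interferon complex, had 1038 and 1183 bp in NR libraries, 1736 and 2378 bp at 30 min, and 1709 and 1626 bp at 2 h, with a 30 min difference of 0.66 ± 0.19 (limma, adjusted p = 0.472). Stat2, its partner in that complex, had 826 and 1007 bp in NR libraries, 686 and 1063 bp at 30 min, and 697 and 1059 bp at 2 h. Its uncentred lengths overlapped at all times, and its log2 differences of -0.24 ± 0.21 at 30 min and -0.55 ± 0.21 at 2 h missed the test (limma, adjusted p = 0.777 and 0.376). Irf7, which drives type I interferon genes, had 876 and 1342 bp in NR libraries, 605 and 1898 bp at 30 min, and 674 and 1318 bp at 2 h. Within each condition the replicate 1 library of Irf7 was the shorter, and its 2 h difference was -0.66 ± 0.34 (limma, adjusted p = 0.483).

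Immunity-related GTPases act on pathogen vacuoles beside the guanylate-binding proteins, and 6 of the 7 listed stand in a pair of clusters on chromosome 11. Igtp had 3046 and 4052 bp in NR libraries, 4479 and 13306 bp at 30 min, and 4620 and 4478 bp at 2 h. Its value at 30 min rested largely on 1 library: the second one reached 12251 bp downstream, past the 3′ end of Igtp, while the first one ended 3547 bp downstream, against 3524 bp in the second NR library. The log2 difference was 0.96 ± 0.29 (limma, adjusted p = 0.504). Tgtp2 had 1388 and 1173 bp in NR libraries, 1784 and 2955 bp at 30 min, and 1841 and 1381 bp at 2 h, with a 30 min difference of 0.64 ± 0.28 (limma, adjusted p = 0.675). Tgtp1 and Tgtp2 are paralogs with closely similar coding sequence, and whether reads were shared between them was not tested, so the values of both are uncertain. Irgm1, a regulator of the other members, had 3730 and 2338 bp in NR libraries, 2105 and 4835 bp at 30 min, and 2851 and 3829 bp at 2 h. The 3 times overlapped for Irgm1, and its 30 min difference was -0.05 ± 0.35 (limma, adjusted p = 0.999). Iigp1 had 859 and 601 bp in NR libraries, 496 and 1147 bp at 30 min, and 407 and 608 bp at 2 h, with a 2 h difference of -0.93 ± 0.34 (limma, adjusted p = 0.369). Its uncentred lengths overlapped. Irgm2 had 852 to 1933 bp, Ifi47 873 to 4345 bp and Tgtp1 3285 to 16094 bp over the 6 libraries, each with the highest value in the second 30 min library. Of the 7 GTPase genes, 0 passed in any comparison.

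Of the 6 antigen processing genes, 0 passed the test in any comparison, and for Psmb9 and Tap1 the values depended on which of the 2 genes a peak was assigned to. Psmb9, Tap1, Psmb8 and Tap2 lie side by side on chromosome 17. They encode 2 immunoproteasome subunits and both subunits of the peptide transporter. Psmb9 (chr17:34182030-34187330) had 3363 and 3222 bp in NR libraries, 3370 and 7860 bp at 30 min, and 3249 and 3059 bp at 2 h. Tap1 (chr17:34187556-34197225) had 1051 and 2569 bp in NR libraries, 888 and 0 bp at 30 min, and 2878 and 4360 bp at 2 h. In all 6 libraries the peak over the shared start region of Psmb9 and Tap1 was assigned to Psmb9, and Tap1 was assigned peaks further inside its gene. The 0 of Tap1 and the 7860 bp of Psmb9 come from the same library, in which 1 peak (chr17:34185472-34193331) ran over both stretches and was assigned to Psmb9. The fitted log2 difference of Tap1 at 30 min was -2.64 ± 1.28 (limma, adjusted p = 0.697) and that of Psmb9 0.47 ± 0.24 (limma, adjusted p = 0.705). Counted by position, whatever gene a peak was assigned to, the differences were 0.11 for Tap1 and -0.13 for Psmb9. Tap1 then had 5675 and 6796 bp in NR libraries, 5933 and 9530 bp at 30 min, and 7214 and 8821 bp at 2 h.

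**Figure D3:**
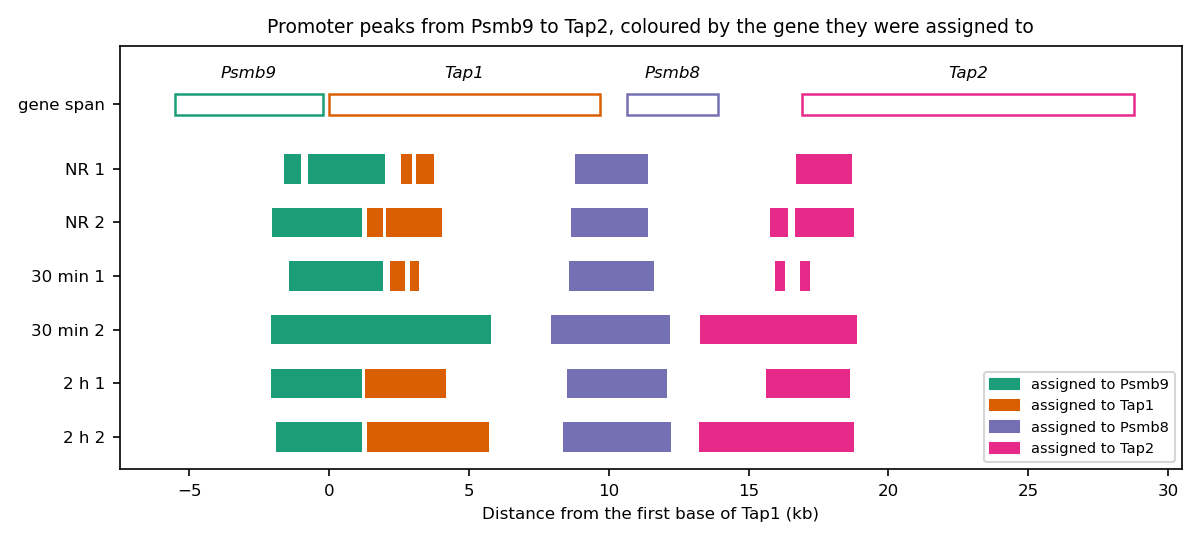
Called promoter peaks from Psmb9 to Tap2, as distance in kb from the first base of Tap1 (horizontal axis), with 1 row per library under the gene spans (open boxes). Colours give the gene that a peak was assigned to; in the second 30 min library 1 peak runs from the Psmb9 start region into Tap1 and no peak is assigned to Tap1.

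Psmb8 had 2605 and 2785 bp in NR libraries, 3067 and 4276 bp at 30 min, and 3599 and 3862 bp at 2 h. Both later times lay above NR in bp, but the centred differences were 0.25 ± 0.18 at 30 min and -0.02 ± 0.18 at 2 h (limma, adjusted p = 0.747 and 0.966). Psmb10, the remaining immunoproteasome subunit, had 1411 and 1459 bp in NR libraries, 561 and 1629 bp at 30 min, and 1454 and 1874 bp at 2 h. The first 30 min library, in which its peak was split into 2 pieces, was the lowest, and the 30 min difference was -0.68 ± 0.24 (limma, adjusted p = 0.568). B2m, the invariant chain of MHC class I, had 3407 and 3890 bp in NR libraries, 3871 and 6303 bp at 30 min, and 4637 and 5559 bp at 2 h. Its centred differences were 0.27 ± 0.16 at 30 min and -0.01 ± 0.16 at 2 h (limma, adjusted p = 0.711 and 0.987). Tap2 had 725 to 5612 bp over the 6 libraries, and its peaks in the second 30 min and second 2 h libraries reached back into Psmb8. Over the 6 antigen processing genes, the median was -0.04 at 30 min and -0.02 at 2 h, against -0.04 and -0.03 over all genes.

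Among the antiviral effectors, both centred 30 min libraries lay above both NR libraries for 1 of 9 tested genes, against 18.8% of all genes. That gene was Isg20, an exonuclease that degrades RNA. It had 1416 and 1490 bp in NR libraries, 2092 and 3800 bp at 30 min, and 2258 and 4309 bp at 2 h. The differences were 0.75 ± 0.25 at 30 min and 0.58 ± 0.25 at 2 h (limma, adjusted p = 0.544 and 0.419), and the 2 h value by position was -0.03. Adar, which edits double-stranded RNA, had 988 and 1944 bp in NR libraries, 1089 and 3270 bp at 30 min, and 1885 and 3295 bp at 2 h. The 3 times overlapped for Adar, and the 30 min difference was 0.26 ± 0.34 (limma, adjusted p = 0.865). Ifit2, a relative of Ifit1, had 544 and 816 bp in NR libraries, 513 and 812 bp at 30 min, and 671 and 905 bp at 2 h, so that the times overlapped in uncentred bp. After centring, Ifit2 lay below NR at both later times, as did 18.9% of all genes at 30 min and 30.8% at 2 h. Rtp4 had called peaks only in the second NR library, with 297 bp, and in the second 30 min library, with 639 bp. Mx1, which RefSeq lists as a transcribed pseudogene in the mouse, had 0 and 490 bp in NR libraries, 0 and 467 bp at 30 min, and 270 and 466 bp at 2 h. The remaining tested effectors, Zbp1, Eif2ak2, Bst2 and Samhd1, had 351 to 2328 bp over all libraries, and 30 min differences of -0.32 to -0.02 that missed the test.

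Of the genes of ubiquitin, ISG15 and ADP-ribosylation, Parp14, an ADP-ribosyltransferase, showed the longest peaks relative to NR. It had 1212 and 1736 bp in NR libraries, 1501 and 5179 bp at 30 min, and 2882 and 3493 bp at 2 h. The first 30 min library lay between the NR libraries, and both 2 h libraries lay above them. The differences were 0.75 ± 0.31 at 30 min and 0.60 ± 0.31 at 2 h (limma, adjusted p = 0.647 and 0.487). Isg15, a ubiquitin-like modifier, had 597 and 732 bp in NR libraries, 581 and 1120 bp at 30 min, and 719 and 824 bp at 2 h. Usp18, which removes ISG15 from proteins, had 710 and 834 bp in NR libraries, 812 and 1286 bp at 30 min, and 911 and 1328 bp at 2 h. In uncentred bp, Isg15 overlapped between all times and Usp18 between NR and 30 min. Their centred 30 min differences were 0.10 ± 0.20 and 0.21 ± 0.19 (limma, adjusted p = 0.949 and 0.788). After centring, both 30 min libraries lay above both NR libraries for Parp14, Isg15 and Usp18, 3 of 5 tested genes, against 18.8% of all genes. At 2 h Isg15 was among 3 of 5 genes that lay below NR, against 30.8%, and 1 lay above, against 22.3%. Trim21, an antibody receptor and ubiquitin ligase, had 322 to 591 bp over the 6 libraries, and Dtx3l 1833 to 2164 bp. Over the 5 tested genes of this group, 0 passed in any comparison. Xaf1, outside these groups, had 331 to 1121 bp.

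**Figure D4:**
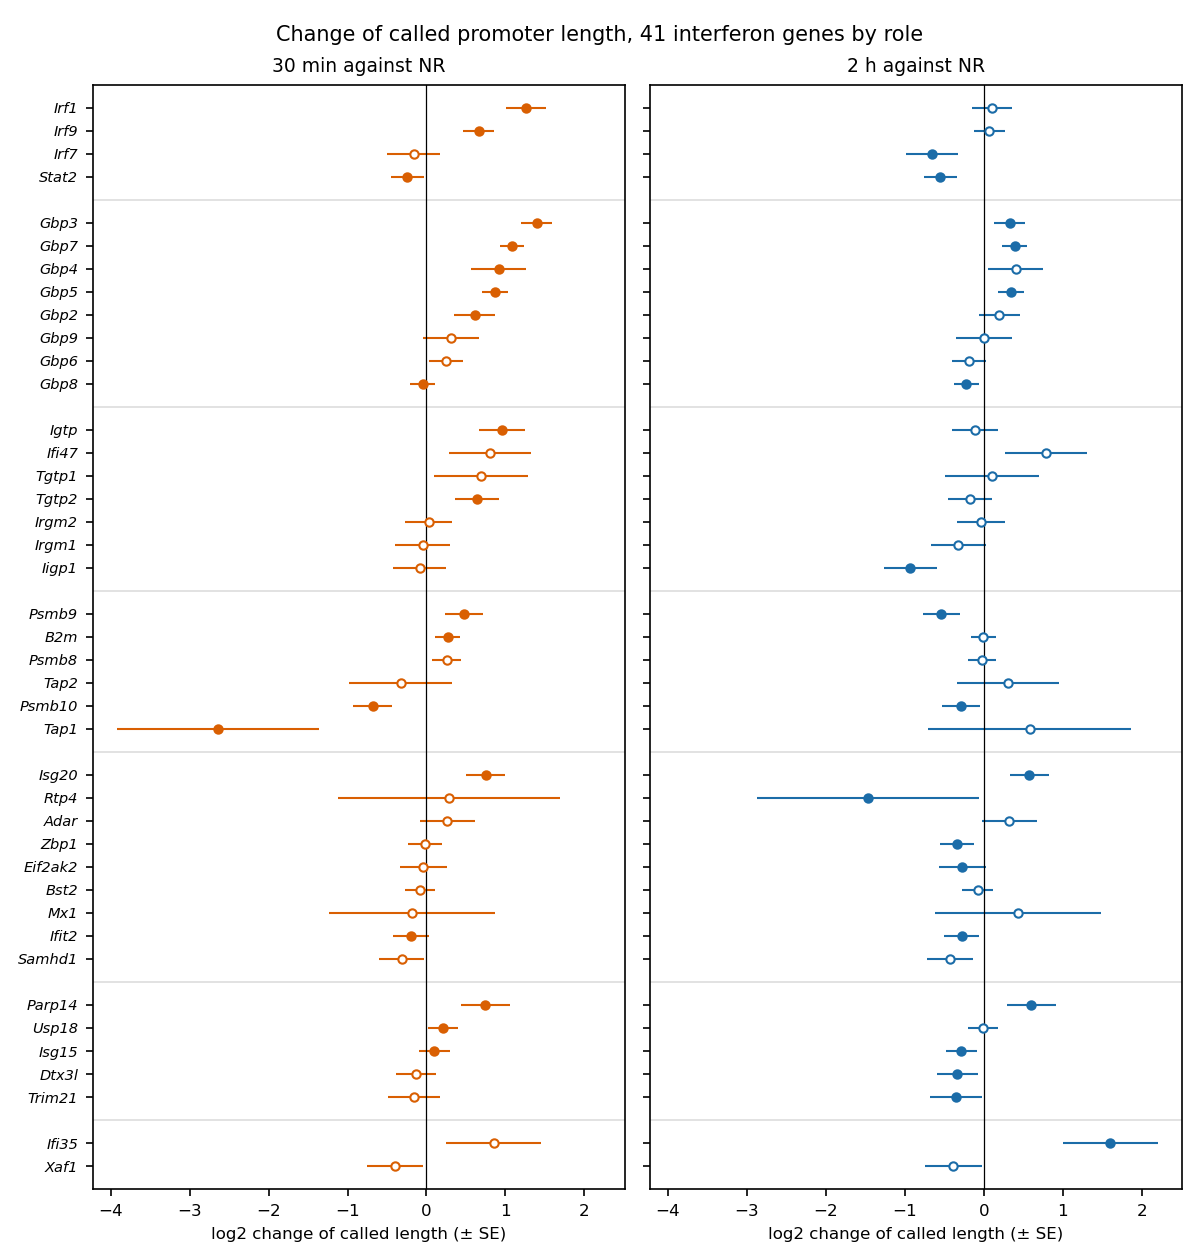
Log2 difference of called promoter length after centring, ± SE from limma, for 41 interferon genes ordered by role, at 30 min (left) and at 2 h (right), each relative to NR. Filled points are genes whose centred libraries do not overlap between the conditions; most guanylate-binding protein genes lie right of 0 at 30 min, and no gene passed the test in either panel.

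After 2 h of restimulation, called lengths were greater in bp than in NR libraries for about as large a share of the interferon genes as of all genes, and their centred median was near 0. With limma and Benjamini-Hochberg adjustment, 0 of 41 interferon genes were called higher, against 0.373% of all genes, and 0 lower, against 0.0606%. At an unadjusted p under 0.05 there were 4 of 41, 2 in each direction, against 12.6% of all genes, 7.95% higher and 4.65% lower. In bp, both 2 h libraries lay above both NR libraries for 22 of 41 genes and below them for 0, against 52.3% and 2.09% of all genes. After centring, the counts were 6 higher and 13 lower, against 22.3% and 30.8%. Within both replicate numbers, 10 were higher and 17 lower, against 28.2% and 40.3%. The median centred difference was -0.04 over the interferon genes and -0.03 over all genes. Of the 38 genes with a peak in every library, 18 reached further downstream at 2 h, against 60.8% of all genes, and 15 further upstream, against 38.1%.

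Of the 8 Gbp genes, 6 were longer in bp in both 2 h libraries than in both NR libraries, against 52.3% of all genes. They were Gbp2, Gbp3, Gbp4, Gbp5, Gbp6 and Gbp7. After centring, both 2 h libraries lay above both NR libraries for 3 of the 8 and below them for 1, against 22.3% and 30.8% of all genes. The centred differences of the 6 ran from -0.19 for Gbp6 to 0.40 for Gbp4. Gbp7 had a 2 h difference of 0.39 ± 0.15 relative to NR (limma, adjusted p = 0.395), Gbp5 of 0.34 ± 0.17 (limma, adjusted p = 0.464) and Gbp3 of 0.33 ± 0.20 (limma, adjusted p = 0.530). Irf1 stood at 0.11 ± 0.25 (limma, adjusted p = 0.880). Psmb9 stood at -0.54 ± 0.24 (limma, adjusted p = 0.434), and in bp it overlapped with NR. The greatest value at 2 h, 1.60 ± 0.60, belonged to Ifi35, an interferon-induced leucine zipper protein (limma, adjusted p = 0.376). Ifi35 had 564 and 1075 bp in NR libraries, 608 and 4394 bp at 30 min, and 3343 and 3945 bp at 2 h. The 3 longest values include a stretch that reaches to between positions -3369 and -3113 relative to the start, which begins near the 3′ end of the neighbouring gene Rpl27. By position, over the gene and 1000 bp on either side, the lengths were 564 and 1075 bp in NR libraries, 608 and 2025 bp at 30 min, and 992 and 1832 bp at 2 h, and the 2 h difference was 0.25.

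Between the later times, Gbp3, Irf1, Igtp and Psmb9 had centred lengths about 1 log2 unit lower at 2 h than at 30 min, but no interferon gene passed the test. With limma, 0 of 41 interferon genes and 0 of 9908 genes were called in either direction. At an unadjusted p under 0.05, 8 of 41 interferon genes were lower and 0 higher, against 2.92% and 2.26% of all genes, 5.18% in all. The median log2 difference was -0.28, against -0.01 over all genes, with 8 of 41 genes above 0. The centred 2 h libraries lay below both 30 min libraries for 18 of 41 genes, against 19.0% of all genes, and above them for 2, against 17.4%. In bp the counts were 3 lower, against 0.727%, and 2 higher, against 17.0%. Within both replicate numbers, 26 were lower and 2 higher, against 33.8% and 27.8%. No interferon gene gained an assigned peak between these times, against 0.710% of all genes, and none lost one, against 0.0960%. The median was 0.04 without centring, where all genes had a median of 0.30.

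Named values of that comparison were -1.07 ± 0.20 for Gbp3 (limma, adjusted p = 0.426), -1.15 ± 0.25 for Irf1 (limma, adjusted p = 0.564) and -1.07 ± 0.29 for Igtp (limma, adjusted p = 0.689). Psmb9 stood at -1.01 ± 0.24 (limma, adjusted p = 0.572), which by position was -0.18. The 3 genes that were shorter in bp in both 2 h libraries than in both 30 min libraries were Gbp3, Irf9 and Psmb9. The comparisons share libraries with each other, so their values are set side by side and not as separate evidence. Of 38 genes compared, Gbp3, Igtp and Irf9 ended nearer to the start site in both 2 h libraries than in both 30 min libraries, against 1.92% of all genes, and 1 gene, Dtx3l, ended further downstream, against 23.3%. For Igtp the gap was small, with 3539 and 3527 bp at 2 h, against 3547 and 12251 bp at 30 min.

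Called bp were also summed over 7 gene clusters, without centring, in libraries whose promoter peaks covered 8.98 to 18.2 Mb after restimulation and 8.73 and 11.8 Mb in NR. Over the chromosome 3 Gbp cluster, of 143 kb, called promoter peaks summed to 8253 and 8589 bp in NR libraries, 14247 and 27080 bp at 30 min, and 14868 and 14257 bp at 2 h. All restimulated libraries lay above both NR libraries there. Over the chromosome 5 Gbp cluster the sums were 4063 and 3975 bp in NR libraries, 5339 and 8516 bp at 30 min, and 5932 and 7029 bp at 2 h, again without overlap. The chromosome 11 cluster around Tgtp1 gave 21082 and 15801 bp in NR libraries, 15729 and 34243 bp at 30 min, and 17252 and 25222 bp at 2 h, which overlapped. From Psmb9 to Tap2 the sums were 8997 and 11328 bp in NR libraries, 8050 and 17748 bp at 30 min, and 12744 and 16815 bp at 2 h. Around Igtp and Irgm2 they were 4375 and 4996 bp in NR libraries, 5331 and 15185 bp at 30 min, and 6126 and 6005 bp at 2 h, without overlap between NR and the later times. Over the Parp14 cluster they were 3155 and 3639 bp in NR libraries, 3334 and 7275 bp at 30 min, and 5277 and 5593 bp at 2 h, and only the 2 h libraries lay above both NR libraries. Over the Ifit cluster they were 1218 and 1533 bp in NR libraries, 972 and 1502 bp at 30 min, and 1207 and 1684 bp at 2 h, with overlap at all times. These sums were not tested.

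Summits of all called peaks, including those inside genes, were counted within the gene spans as a separate reading. The 48 spans held 65 and 69 summits in NR libraries, 71 and 108 at 30 min, and 71 and 80 at 2 h, in libraries with 19888 and 17627, 15330 and 23299, and 20086 and 21743 summits. At least 1 summit lay in 39 and 40 of the genes in NR libraries, 40 and 42 at 30 min, and 40 and 41 at 2 h. In the chromosome 3 Gbp cluster there were 11 and 9 in NR libraries, 12 and 27 at 30 min, and 11 and 16 at 2 h. The second 30 min library stood highest, followed by the second 2 h library. With 1000 bp on either side of the span included and after centring, the log2 difference in summit number at 30 min was -0.21 for Gbp3, -0.29 for Irf1 and -0.87 for Igtp, the opposite sign of their called length. None of the 3 passed the test on that scale. A long peak can hold a single summit, so called length and summit number count different things.

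**Figure D5:**
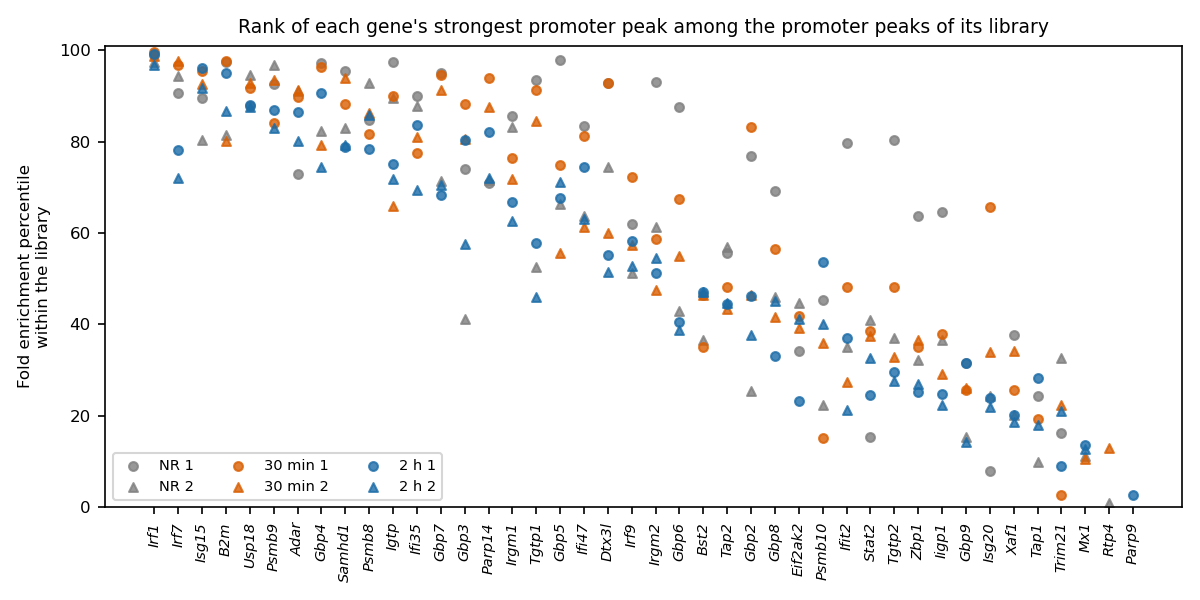
Percentile of each interferon gene's highest fold enrichment among the promoter peaks of the same library (vertical axis, 100 is the top), genes ordered by their median. Colours give the time and symbols the replicate; Irf1 leads the 42 genes in every library, and Mx1, Rtp4 and Parp9 stand at the low end.

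Within a library, the fold enrichment that the peak caller gave to each peak, the authors' own value, ranked the genes against all promoter peaks of that list. Irf1 ranked highest of the interferon genes in every library, at the 99.0 and 97.5 percentile in NR libraries, the 99.5 and 98.6 at 30 min, and the 99.2 and 96.7 at 2 h. The median percentile of the genes with a peak was 80.4 and 52.5 in NR libraries, 76.5 and 56.5 at 30 min, and 55.1 and 52.1 at 2 h. The first NR and first 30 min libraries stood above the other 4, and they were also the libraries with the fewest promoter bp called. Of the genes with a peak, 12 and 6 were in the top decile in NR libraries, 11 and 8 at 30 min, and 4 and 2 at 2 h. Because the lists differ in length and depth, these ranks show no change over time.

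Other genes of the pathway were read from lists. Of 23 genes of interferon signalling 22 were tested, and 0 were called in any comparison, with medians of 0.30 at 30 min and 0.39 at 2 h relative to NR. Over all genes the medians were -0.04 and -0.03. At 30 min 0.232% of all genes were called higher and 0.0101% lower, and at 2 h 0.373% and 0.0606%. Jak2, a kinase of the interferon gamma receptor, had 793 and 1550 bp in NR libraries, 1745 and 3524 bp at 30 min, and 5242 and 6334 bp at 2 h. Both 2 h libraries lay above all others, and the 2 h difference was 1.79 ± 0.21 (limma, adjusted p = 0.0515), just short of the threshold. Jak2 passed it under 5 of the alternative settings and missed it under the other 13, so its call depends on the processing. Ifngr1, a chain of that receptor, had 1713 and 2503 bp in NR libraries, 4380 and 6543 bp at 30 min, and 2116 and 4504 bp at 2 h, with a 30 min difference of 1.17 (limma, adjusted p = 0.367). The other chain, Ifngr2, had no peak in NR libraries, 0 and 481 bp at 30 min, and 572 and 1158 bp at 2 h. Socs1, an inhibitor of the pathway, had long peaks throughout, of 7033 and 7050 bp in NR libraries, 6738 and 10019 bp at 30 min, and 7781 and 9706 bp at 2 h. Irf8, a relative of Irf1, had 4000 and 4617 bp in NR libraries, 6474 and 23637 bp at 30 min, and 10505 and 23957 bp at 2 h, and it missed the test. Irf2, which competes with Irf1, had no assigned peak, and by position it had 3453 to 4580 bp.

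Of 68 further interferon-stimulated genes 52 were tested. At 30 min 0 were called higher and 1 lower, against 0.232% and 0.0101% of all genes. At 2 h 1 was called higher and 1 lower, against 0.373% and 0.0606%. The one called higher was Cd274, which encodes the inhibitory ligand PD-L1. It had 885 and 856 bp in NR libraries, 1100 and 2570 bp at 30 min, and 5495 and 6104 bp at 2 h. Both 2 h libraries lay above all others, and the difference of 2.12 ± 0.20 passed the test (limma, adjusted p = 0.0282). The call ended when any 1 of the NR or 2 h libraries was left out (limma, adjusted p = 0.0728 to 0.212) by position (limma, adjusted p = 0.0845), without centring (limma, adjusted p = 0.0682) and with the replicate number as a block (limma, adjusted p = 0.0562). By number of summits the Cd274 difference was 0.08. The one called lower, at both times, was Shisa5, with 6430 and 8258 bp in NR libraries, 450 and 927 bp at 30 min, and 481 and 653 bp at 2 h. The differences were -3.46 ± 0.14 at 30 min and -3.96 ± 0.14 at 2 h (limma, adjusted p = 0.0016 and 0.00129). By position Shisa5 had 7785 and 9655 bp in NR libraries, 9695 and 10308 bp at 30 min, and 10166 and 10324 bp at 2 h, so that the loss lay in the assignment of the peaks to genes and not in the peaks. Medians over this list were -0.11 at 30 min and -0.16 at 2 h, against -0.04 and -0.03 over all genes.

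Of 24 genes of antigen presentation 19 were tested and 0 were called, with medians of 0.24 at 30 min and 0.06 at 2 h. All genes had medians of -0.04 and -0.03, with 0.232% called higher and 0.0101% lower at 30 min, and 0.373% and 0.0606% at 2 h. H2-K1, an MHC class I heavy chain, had 2333 and 5551 bp in NR libraries, 6202 and 8784 bp at 30 min, and 6582 and 7563 bp at 2 h. All restimulated libraries exceeded both NR libraries, though the H2 genes are alike in sequence, so that their values are uncertain. Tapbp, which loads peptide onto MHC class I, had 1416 and 2001 bp in NR libraries, 1337 and 2213 bp at 30 min, and 1663 and 2289 bp at 2 h. The constitutive proteasome subunits that the immunoproteasome replaces, Psmb5, Psmb6 and Psmb7, had 434 to 1005 bp over all libraries. All 3 were tested and 0 were called, with a median of 0.06 at 30 min and -0.02 at 2 h, against -0.04 and -0.03 over all genes.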

How the data were processed

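RNA polymerase II ChIP-seq was read from 6 deposited promoter peak lists, 2 each for NR, 30 min and 2 h, and from 6 deposited summit lists; 3 H3K36me3 libraries and 1 input were not used here. The submitters' processing notes name BWA 0.7.13, Picard 1.119, MACS2 2.1.0 and the build mm10. Per the file headers the authors' lists give pileup signal, fold enrichment (a ratio to local background) and −log10 p- and q-values per peak, and each peak is assigned to 1 gene. The q-value and pileup columns entered only the stricter peak threshold and the reading of depth. Peak start, end and width come from the same deposited lists. No read counts were used, so the depth and its counting error are unknown.

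From these, called length was summed per gene and library, log2(bp + 100) was centred per library on the median of genes with a peak in all 6 libraries, and the genes that had a peak in 2 or more libraries were fitted with limma 3.58.1 (trend, empirical Bayes, all 6 libraries, two-sided, Benjamini-Hochberg over all tested genes, call at 0.05) in R 4.3.3. The fit was tested on simulated data. With 2 libraries against 2 no permutation test can reach 0.05, so presence, ranks and summits inside gene spans have no test. As an alternative to called length, log2(summits + 1) over the span and 1000 bp on either side was fitted with limma. By position means the bp of promoter peaks inside the gene's RefSeq span and 1000 bp on either side, whatever gene they were assigned to; the 45 member transcripts that the files name all lay within these spans. The members and gene lists were chosen with earlier results of these data known. Genes were named by rule: any past the threshold, those with the largest centred difference among non-overlapping groups (10 higher and 5 lower per comparison with NR), and a set list. Alternatives were other pseudocounts, filters, scalings, thresholds, assignment by position, number of summits, a replicate block, and leaving out each library. One gene of the set list is not reported here.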

Additional observations from a re-analysis of the deposited data

How the results depend on the processing

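The calls rest on 2 libraries a condition and on peak lists without read counts, and the local background in reads was lower in the replicate 1 libraries; what part depth has in called length was not tested. No interferon gene passed the threshold under any alternative except 1: without the first 30 min library, Tap1 did (-4.68, limma, adjusted p = 0.0438), so that the count of interferon genes past the threshold at 30 min ranged from 0 to 1 when a library was left out. Counts over all genes moved more. At 30 min relative to NR, 24 genes passed, against 40 with a pseudocount of 1000 bp, 38 by position, 9 by position with an overlap of 500 bp, 140 by number of summits and 7 with only the 4 libraries compared, and 4 (without the first NR library) to 227 (without the second 30 min library) when 1 library was left out. At 2 h relative to NR, 43 passed, against 112 with 1000 bp, 79 with quantile normalisation, 19 with an overlap of 500 bp, 211 by summits, 176 with only the 4 libraries, and 4 (without the first NR library) to 186 (without the second 30 min library) in leave-one-out fits. At 2 h relative to 30 min, 0 passed, against 8 with 1000 bp, 1 with a peak in at least 4 libraries, 1 with quantile normalisation, 141 by summits, and 0 to 206 (without the second 30 min library). The median over the interferon genes at 30 min was 0.25, against 0.00 by summits and 0.06 (without the second NR library) to 0.34 in leave-one-out fits. At 2 h relative to NR it was -0.04, against 0.44 without centring, where the median of all genes was 0.45, and -0.23 with quantile normalisation. At 2 h relative to 30 min it was -0.28, against 0.04 without centring and 0.00 by summits. With 1 library left out, the count of interferon genes with an assigned peak in 1 condition and not in the other ranged from 0 to 1 at 30 min relative to NR, from 0 to 1 at 2 h relative to NR, and from 0 to 2 at 2 h relative to 30 min.

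By number of summits, over the gene span and 1000 bp on either side, the sign turned at 30 min relative to NR for Gbp3 (-0.21), Irf1 (-0.29), Igtp (-0.87), Tgtp2 (-0.42), Psmb10 (0.58), Ifngr1 (-0.87) and H2-K1 (-0.50), at 2 h relative to NR for Parp14 (-0.50), Isg20 (-0.29) and Psmb9 (0.50), and at 2 h relative to 30 min for Gbp3 (0.50), Irf1 (0.34), Psmb9 (0.21), Igtp (0.66) and Tgtp2 (0.54). The cause was not tested. By position it turned for Tap1 at 30 min (0.11, and 0.08 with an overlap of 500 bp), Psmb9 at 30 min (-0.13 and -0.17) and Isg20 at 2 h (-0.03). With quantile normalisation it turned for Psmb9 at 30 min (-0.02) and for Irf1 at 2 h relative to NR (-0.23), and for the last also without the second 2 h library (-0.13). Gbp7, Gbp5, Gbp4, Gbp2 and Irf9 kept the sign of their 30 min difference under all 18 alternatives. Replicate numbers are not said to pair the libraries. Same-numbered libraries deviated together, with correlations over genes of 0.442 for 30 min and NR, 0.269 for 2 h and NR, and 0.408 for 2 h and 30 min. With the replicate number as a block, 19 genes passed at 30 min, 33 at 2 h and 0 between 2 h and 30 min, and 0 interferon genes passed in any comparison.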
